A study of Mus musculus with 15 samples.

Results

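Leukaemia inhibitory factor (LIF) signalling was described across 5 mouse embryonic stem (ES) cell lines through 7 genes: Lif, Lifr, Il6st, Jak1, Stat3, Socs3 and Pim1. These genes were chosen by name, and every probe set annotated to a single one of them was taken. They are 7 of the 18193 genes that had such a probe set, and they carried 21 probe sets. Of these, 18 passed a filter on low values and were tested. The other 3 were 1450160_at of Lif and 1424272_at and 1459961_a_at of Stat3.

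RNA was hybridised to Affymetrix whole-genome mouse arrays, 3 per line and 15 in all. FpB6CBA was a parthenogenetic line from oocytes grown in cultured preantral follicles of B6CBAF1 hybrids, the offspring of C57BL6 females and CBA/Ca males. FpB6D2 was made the same way from B6D2F1 hybrids, the offspring of C57BL6 females and DBA2 males, and the follicles came from prepubertal females. OpB6D2 was a parthenogenetic line from naturally ovulated B6D2F1 oocytes. R1 was a purchased line from a cross of 129S1/SvImJ and 129X1/SvJ mice, and NmB6D2 came from fertilisation of C57BL6 females by DBA2 males. A parthenogenetic embryo develops from an activated oocyte and carries no paternal genome. Each line is a single derivation, and strain background differs along with origin between several lines. The sources used here do not say that arrays of a line came from separate cultures, so p-values measure only how far the 3 arrays of a line vary, which may be technical. They also do not state whether LIF or feeder cells were present in the culture.

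LIF is a secreted cytokine of the interleukin-6 family and the factor that keeps mouse ES cells self-renewing in culture. It binds a pair of receptor chains, Lifr and the shared signalling chain Il6st, which hold the tyrosine kinase Jak1. Jak1 phosphorylates the transcription factor Stat3, which enters the nucleus and switches on target genes. Socs3 is such a target and shuts the receptor complex down, and Pim1, another Stat3 target, encodes a serine/threonine kinase that favours cell survival. Messenger RNA levels do not measure the phosphorylation of Stat3.

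Promoter windows of both Stat3 targets are shown because Pim1 gave the widest range of line means and Socs3 is the feedback inhibitor. Each window holds the 250 bases before a gene start in RefSeq (GRCm38.p6), in the direction of transcription. TTCNNNGAA, the palindrome that Stat factors are known to bind, is in capitals where a search of both strands found it.
Socs3, chr11:117969367-117969616, minus strand: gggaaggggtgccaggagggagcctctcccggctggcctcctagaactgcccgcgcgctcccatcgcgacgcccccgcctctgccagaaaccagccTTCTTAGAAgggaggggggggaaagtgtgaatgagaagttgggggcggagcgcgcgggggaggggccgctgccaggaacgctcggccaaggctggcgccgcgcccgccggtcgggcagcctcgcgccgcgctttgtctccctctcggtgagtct
Pim1, first start, chr17:29490535-29490784, plus strand: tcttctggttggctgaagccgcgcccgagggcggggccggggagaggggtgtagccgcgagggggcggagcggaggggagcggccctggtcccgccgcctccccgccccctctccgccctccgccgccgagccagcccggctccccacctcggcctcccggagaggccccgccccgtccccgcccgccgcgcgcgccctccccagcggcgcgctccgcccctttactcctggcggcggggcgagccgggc
Pim1, second start, chr17:29492835-29493084, plus strand: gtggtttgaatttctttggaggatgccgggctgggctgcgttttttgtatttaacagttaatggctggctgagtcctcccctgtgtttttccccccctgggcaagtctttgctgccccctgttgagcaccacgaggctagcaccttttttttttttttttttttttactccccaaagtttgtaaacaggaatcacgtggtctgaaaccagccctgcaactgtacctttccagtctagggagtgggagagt
The Socs3 window held 1 match, 154 to 146 bases before the start, and neither Pim1 window held one. The 7 genes had 9 such windows, of which 1 held the motif, against 2306 of 32851 mouse promoter windows (7.02%). The stricter form TTCCNGGAA, which lies within the first, was in 300 windows (0.913%) and in none of the 9. A match describes letters in the window and is not evidence of binding.

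Values are log2 intensities, so a difference of 1 is 2-fold. Differences between lines were tested with limma over all 15 arrays and all 24524 probe sets past the filter, which asked for 3 or more arrays at or above 3.864, the median over the table. To be called, a difference had to reach 2-fold and have an adjusted p below 0.05, and a gene counted when any of its probe sets was called. Levels of different probe sets are not comparable, since probes bind with different strength. The correlation between arrays ran from 0.992 to 0.998 within a line and from 0.917 to 0.978 between lines. The excess of 3′ over 5′ actin control signal rises as RNA integrity falls. This excess was 0.66 to 0.76 in FpB6CBA, 0.62 to 0.65 in FpB6D2, 0.50 to 0.55 in OpB6D2, 0.52 to 0.55 in R1 and 0.48 to 0.53 in NmB6D2. It lay in separate ranges for FpB6CBA and FpB6D2, so that its part in their results cannot be told apart from line. Added poly-A controls averaged 7.45 to 8.20 per array in FpB6CBA and 7.21 to 7.30 in FpB6D2. They averaged 6.88 to 7.13 in OpB6D2, 6.78 to 7.04 in R1 and 6.81 to 6.94 in NmB6D2. Hybridisation controls averaged 9.43 to 10.20 in FpB6CBA, 9.58 to 9.88 in FpB6D2 and 9.26 to 9.32 in OpB6D2. In R1 and NmB6D2 they averaged 9.10 to 9.34 and 9.22 to 9.51. The part of these controls in the results was not tested. The ES cell markers Pou5f1 and Sox2 were bright in every line, with line means of 11.38 to 12.02 and of 10.96 to 11.26. The remaining ES cell marker, Nanog, varied more, with line means from 9.81 in FpB6CBA to 11.39 in FpB6D2.

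Over the 5 lines, 4 of the 7 genes differed by at least 2-fold between the highest and lowest line: Lifr, Il6st, Jak1 and Pim1. They did so on 5 of 18 probe sets (27.8%), where 31.9% of all probe sets tested were called by the same F test. Lifr, Il6st and Jak1 were each called on 1 dim probe set. Their brightest probe sets, with ranges of line means of 0.96, 0.46 and 0.82, were not called. Pim1 alone was called when the brightest probe set stood for each gene or when probe sets were averaged. The share of all genes called by the F test under these settings is not reported here. The range of line means had a median of 0.82 over the 18 probe sets, against 0.72 over all probe sets tested. The share of called probe sets was thus close to that of all transcripts measured. Pim1 was the gene called in the most comparisons: relative to NmB6D2 it fell in R1 on both probe sets, and in OpB6D2 and FpB6CBA on 1423006_at alone. All of these calls share the NmB6D2 arrays. The OpB6D2 and FpB6CBA calls were lost when the brightest probe set stood for the gene or its probe sets were averaged.

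**Figure D1:**
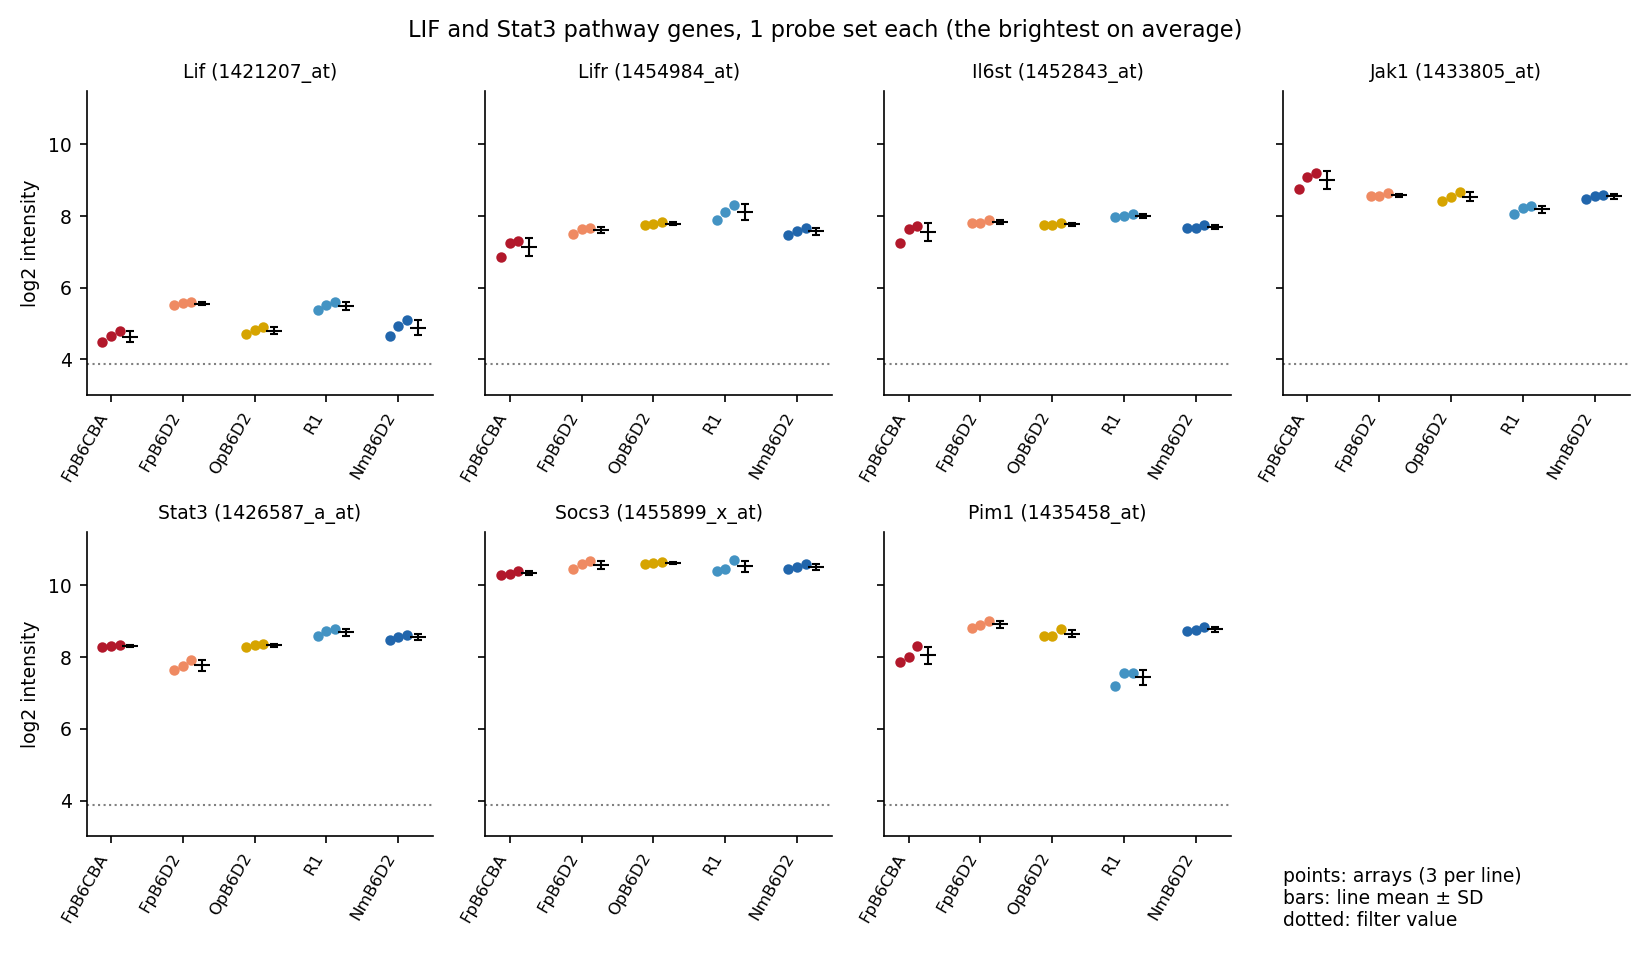
Log2 intensity of the brightest probe set of each gene on each array, with the lines along the horizontal axis; points are arrays placed by value, bars are the line mean ± SD (n = 3) and the dotted line is the filter value of 3.864. Pim1 is lowest in R1 at 7.44 and Lifr is highest in R1 at 8.10, while Socs3 lies between 10.34 and 10.62 in all lines.

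The ligand Lif was dim in all lines. Probe set 1421207_at read 4.65, 4.48 and 4.79 in FpB6CBA, 5.51, 5.57 and 5.59 in FpB6D2, 4.90, 4.70 and 4.81 in OpB6D2, 5.51, 5.59 and 5.38 in R1, and 4.92, 4.66 and 5.09 in NmB6D2. FpB6D2 and R1 lay above the other 3 lines with no overlap of arrays, and overlapped each other. The other 3 lines, in the order NmB6D2, OpB6D2 and FpB6CBA, overlapped with their neighbours. Lif was 1.59-fold higher in FpB6D2 than in NmB6D2 (log2 difference 0.67 ± 0.11 SE, limma adjusted p = 9.6e-05) and 1.52-fold higher in R1 than in NmB6D2 (0.61 ± 0.11, limma adjusted p = 0.0002). FpB6CBA lay 1.88-fold below FpB6D2 (-0.91 ± 0.11, limma adjusted p = 4.9e-06). All these differences exceeded the spread between arrays and stayed under the 2-fold minimum. The other Lif probe set, 1450160_at, had line means of 3.41 to 3.85, at or below the filter value.

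Lifr, the chain that binds LIF, was read by 3 probe sets that ordered the lines differently. The brightest, 1454984_at, read 7.31, 7.24 and 6.86 in FpB6CBA, 7.64, 7.66 and 7.5 in FpB6D2, 7.84, 7.78 and 7.75 in OpB6D2, 8.32, 7.88 and 8.11 in R1, and 7.59, 7.48 and 7.67 in NmB6D2. R1 was highest and FpB6CBA lowest, both clear of the others, while FpB6D2 and NmB6D2 overlapped. The difference was 0.52 ± 0.12 for R1 minus NmB6D2 (1.44-fold, limma adjusted p = 0.0016) and -0.44 ± 0.12 for FpB6CBA minus NmB6D2 (1.36-fold, limma adjusted p = 0.0076).

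On 1425107_a_at, Lifr read 5.69, 5.54 and 5.39 in FpB6CBA, against 4.80, 4.78 and 4.28 in NmB6D2. The other lines had means of 4.58 in FpB6D2, 4.61 in OpB6D2 and 4.40 in R1, and all 4 lines other than FpB6CBA overlapped. This probe set was called over the 5 lines (range 1.14, limma F test adjusted p = 1.2e-05). FpB6CBA was 1.95-fold above FpB6D2 (0.96 ± 0.13, limma adjusted p = 2.2e-05) and 1.89-fold above NmB6D2 (0.92 ± 0.13, limma adjusted p = 6.2e-05), just under the minimum. Without FpB6CBA replicate 3 or FpB6D2 replicate 3 the first difference was 1.04 or 1.03 and was called, and without NmB6D2 replicate 2 the second was 1.01 and was called. So FpB6CBA was the lowest line on the brightest Lifr probe set and the highest on this one. The mean of all Lifr probe sets differed by -0.01 between FpB6CBA and FpB6D2 (limma adjusted p = 0.91). The third probe set, 1450207_at, was highest on average in FpB6D2, at 5.11, 5.26 and 4.86, against 4.05, 4.27 and 4.43 in NmB6D2 (0.83 ± 0.17, 1.77-fold, limma adjusted p = 0.001). Whether probe sets of a gene differed in their line pattern was not tested.

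Il6st, the signalling chain shared by the interleukin-6 family, had a small range on 3 of its 4 probe sets. The brightest, 1452843_at, had line means of 7.55 in FpB6CBA, 7.84 in FpB6D2, 7.77 in OpB6D2, 8.01 in R1 and 7.70 in NmB6D2, and R1 lay above all other arrays. In the order FpB6D2, OpB6D2, NmB6D2 and FpB6CBA, the other 4 lines overlapped only with their neighbours. The distance of R1 from NmB6D2 was 1.24-fold (0.31 ± 0.10, limma adjusted p = 0.014). On 1460295_s_at the line means ran from 5.77 to 6.22, with R1 highest. On 1421239_at they ran from 5.14 to 5.36, the smallest range of the 18 probe sets at 0.22 (limma F test adjusted p = 0.31), with OpB6D2 lowest and below the arrays of FpB6D2 and NmB6D2 while other pairs of lines overlapped. The suffix _s_at marks probes that can match more than a single transcript.

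The fourth Il6st probe set, 1437303_at, separated 2 lines from the rest. It read 6.03, 5.98 and 5.50 in FpB6CBA, 4.28, 4.52 and 4.44 in FpB6D2, 5.30, 5.26 and 5.06 in OpB6D2, 5.36, 5.20 and 5.18 in R1, and 5.47, 5.43 and 5.32 in NmB6D2. FpB6CBA was above and FpB6D2 below every other array, and between them R1 overlapped both OpB6D2 and NmB6D2, which did not overlap each other. This Il6st signal rose 2.69-fold in FpB6CBA relative to FpB6D2 (1.43 ± 0.12, limma adjusted p = 2.1e-07), where 10.0% of all probe sets were called, and stayed between 1.33 and 1.59 over the alternative settings that kept the probe set. FpB6D2 lay 1.99-fold below NmB6D2 (-0.99 ± 0.12, limma adjusted p = 8.3e-06), at the edge of the minimum. That difference was -1.04, -1.01 and -1.03, and called, without FpB6D2 replicate 2, FpB6D2 replicate 3 and NmB6D2 replicate 3. In the same contrast of FpB6CBA with FpB6D2, the brightest Il6st probe set went the other way (-0.29 ± 0.10, limma adjusted p = 0.02). Averaged over its probe sets, Il6st differed by 0.25 between these lines.

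**Figure D2:**
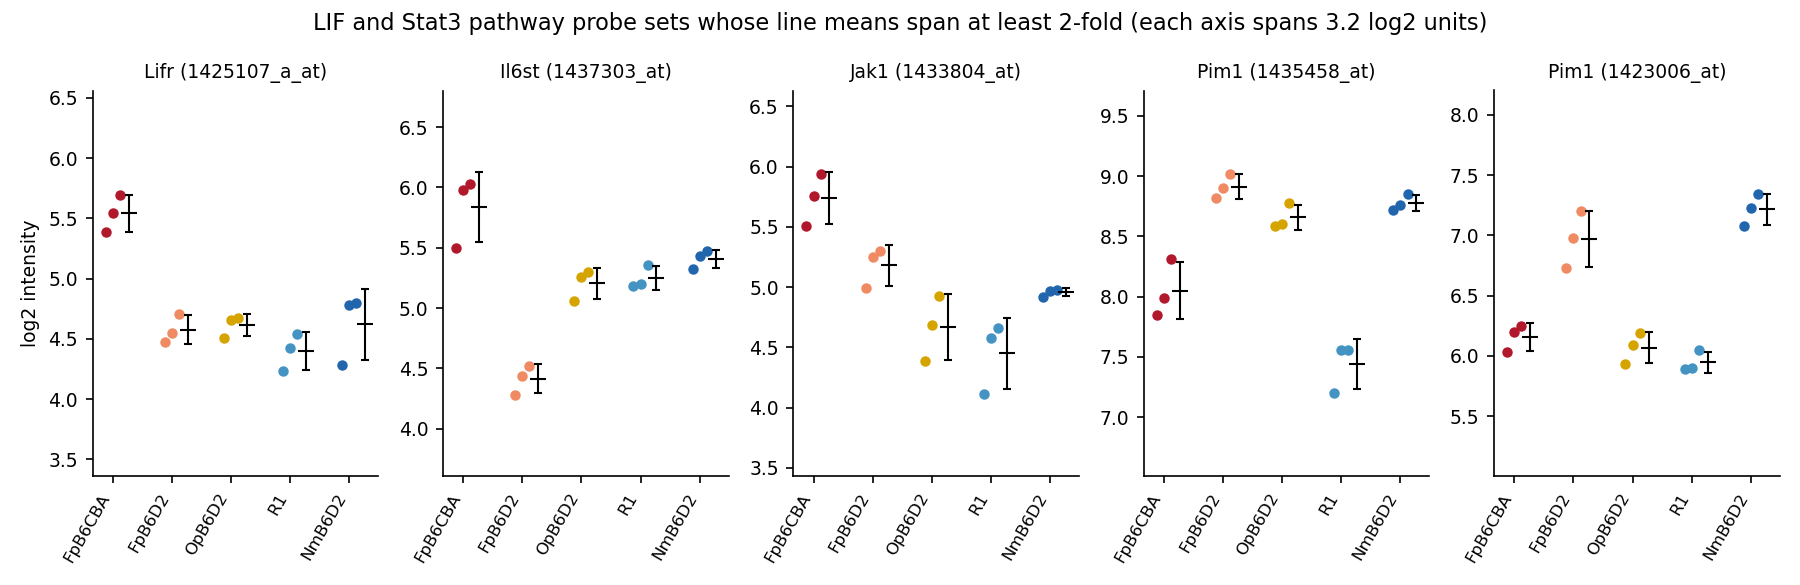
Log2 intensity on each array for the 5 probe sets whose line means spanned at least 2-fold; points are arrays placed by value, bars are the line mean ± SD (n = 3), and every vertical axis spans the same number of log2 units. FpB6CBA stands above the other lines for Lifr, Il6st and Jak1, FpB6D2 stands lowest for Il6st at 4.41, and R1 is lowest on both Pim1 panels at 7.44 and 5.95.

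Jak1, the receptor-bound kinase, was highest in FpB6CBA on 2 of its 3 probe sets. On 1433805_at it read 9.08, 9.21 and 8.74 in FpB6CBA, 8.56, 8.63 and 8.55 in FpB6D2, 8.53, 8.67 and 8.43 in OpB6D2, 8.27, 8.07 and 8.22 in R1, and 8.48, 8.56 and 8.60 in NmB6D2. FpB6CBA was highest and R1 lowest, with the other 3 lines overlapping. FpB6CBA exceeded NmB6D2 by 0.46 ± 0.10 (1.38-fold, limma adjusted p = 0.0024), and R1 minus NmB6D2 was -0.36 ± 0.10 (1.28-fold, limma adjusted p = 0.0082). The dim probe set 1433804_at kept FpB6CBA at the top and R1 at the bottom, with line means of 5.74 and 4.45. It was called over the 5 lines (range 1.29, limma F test adjusted p = 3e-05), although no pair of lines among the 6 compared reached 2-fold. The third, 1433803_at, placed FpB6D2 lowest, at 6.78, 6.71 and 6.57, against 7.24, 7.43 and 7.32 in NmB6D2 (-0.64 ± 0.10, 1.56-fold, limma adjusted p = 0.00011), and FpB6CBA and R1 overlapped on it.

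Stat3, the transcription factor, was lowest in FpB6D2 on both tested probe sets. On 1426587_a_at it read 8.32, 8.27 and 8.34 in FpB6CBA, 7.92, 7.75 and 7.63 in FpB6D2, 8.33, 8.37 and 8.29 in OpB6D2, 8.72, 8.58 and 8.78 in R1, and 8.57, 8.63 and 8.47 in NmB6D2. R1 overlapped NmB6D2 at the top, OpB6D2 overlapped FpB6CBA in the middle, and FpB6D2 lay below every other array. FpB6D2 was 1.73-fold below NmB6D2 (-0.79 ± 0.08, limma adjusted p = 8.9e-07) and 1.48-fold below OpB6D2 (-0.57 ± 0.08, limma adjusted p = 4.5e-05), while FpB6CBA exceeded FpB6D2 by 0.54 ± 0.08 (1.46-fold, limma adjusted p = 3.5e-05).

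The second probe set, 1460700_at, read 8.06, 8.01 and 7.88 in FpB6CBA, 7.56, 7.64 and 7.58 in FpB6D2, 7.91, 8.08 and 7.92 in OpB6D2, 8.39, 8.42 and 8.35 in R1, and 7.86, 7.92 and 7.93 in NmB6D2. It again put R1 at the top and FpB6D2 at the bottom, and the other 3 lines overlapped. FpB6D2 minus NmB6D2 was -0.31 ± 0.06 (1.24-fold, limma adjusted p = 0.00083), and R1 minus NmB6D2 was 0.48 ± 0.06 (1.4-fold, limma adjusted p = 1.5e-05). No Stat3 difference reached 2-fold. The probe sets 1424272_at and 1459961_a_at had line means of 3.72 to 3.80 and of 3.47 to 3.79, below the filter value.

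Socs3, the feedback inhibitor, had the smallest range of the 7 genes on its brightest probe set. On 1455899_x_at the line means were 10.34 in FpB6CBA, 10.57 in FpB6D2, 10.62 in OpB6D2, 10.53 in R1 and 10.51 in NmB6D2, a range of 0.28 (limma F test adjusted p = 0.054). On 1456212_x_at it read 8.99, 8.94 and 9.02 in FpB6CBA and 8.88, 8.69 and 8.78 in FpB6D2, against 9.50, 9.42 and 9.27 in NmB6D2. Both follicle-derived lines lay below the other 3, by -0.41 ± 0.08 for FpB6CBA minus NmB6D2 (1.33-fold, limma adjusted p = 0.00097) and by -0.61 ± 0.08 for FpB6D2 minus NmB6D2 (1.53-fold, limma adjusted p = 2e-05). On 1416576_at OpB6D2 was highest, at 9.02, 8.98 and 8.88, against 8.67, 8.66 and 8.73 in NmB6D2 (0.27 ± 0.08, 1.21-fold, limma adjusted p = 0.016), and FpB6CBA minus NmB6D2 was -0.35 ± 0.08 (1.28-fold, limma adjusted p = 0.003). The suffix _x_at marks probes that can cross-hybridise, so 1455899_x_at and 1456212_x_at may read other transcripts too.

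Pim1 had the widest range of line means, 1.47 on 1435458_at, while the largest difference in the 6 comparisons was Il6st 1437303_at, at 1.43. On 1435458_at it read 8.31, 7.85 and 7.99 in FpB6CBA, 8.82, 8.90 and 9.02 in FpB6D2, 8.78, 8.59 and 8.60 in OpB6D2, 7.56, 7.20 and 7.56 in R1, and 8.72, 8.76 and 8.85 in NmB6D2. R1 lay below every other array, FpB6CBA came next, and at the top NmB6D2 overlapped both FpB6D2 and OpB6D2, which did not overlap each other. On 1423006_at it read 6.20, 6.03 and 6.25 in FpB6CBA, 7.20, 6.98 and 6.73 in FpB6D2, 6.19, 5.93 and 6.09 in OpB6D2, 5.90, 5.89 and 6.05 in R1, and 7.34, 7.08 and 7.23 in NmB6D2. NmB6D2 and FpB6D2 overlapped at the top and the other 3 lines overlapped at the bottom.

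In R1, Pim1 fell 2.52-fold and 2.41-fold relative to NmB6D2 on the 2 probe sets (-1.33 ± 0.12, limma adjusted p = 3e-07, and -1.27 ± 0.11, limma adjusted p = 2.9e-07). Here 12.7% of all probe sets were called, and Pim1 was the called gene among the 7. In OpB6D2, Pim1 fell 2.21-fold relative to NmB6D2 on 1423006_at (-1.15 ± 0.11, limma adjusted p = 1.9e-06), where 5.42% of all probe sets were called, while on 1435458_at the difference was -0.12 ± 0.12 (limma adjusted p = 0.46). Averaged over both probe sets the OpB6D2 difference was -0.63, under the minimum. In FpB6CBA, Pim1 fell 2.08-fold relative to NmB6D2 on 1423006_at (-1.05 ± 0.11, limma adjusted p = 4.9e-06), where 4.31% of all probe sets were called, and the other probe set gave -0.72 ± 0.12 (1.65-fold, limma adjusted p = 0.00022). Without FpB6CBA replicate 1, or without NmB6D2 replicate 2, the FpB6CBA difference on 1423006_at was -0.99 and no longer called.

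In FpB6D2, no Pim1 difference from NmB6D2 passed the test. The probe sets gave 0.14 ± 0.12 and -0.25 ± 0.11 relative to NmB6D2 (limma adjusted p = 0.35 and 0.081). No gene of the 7 was called in FpB6D2 against NmB6D2 with limma, where 10.2% of all probe sets were. At an unadjusted p under 0.05 there were 9 of 18 probe sets, against 59.6% of all probe sets. None was called in FpB6D2 against OpB6D2 either, where 4.07% of all probe sets were. At an unadjusted p under 0.05 there were 11 of 18, against 54.1% of all probe sets. The largest of these differences was Pim1 on 1423006_at, at 0.90 ± 0.11 (1.87-fold, limma adjusted p = 2.1e-05), which was 1.02 and called without FpB6D2 replicate 3. Pim1 in FpB6CBA was 1.82-fold and 1.75-fold below FpB6D2 (-0.87 ± 0.12 and -0.81 ± 0.11, limma adjusted p = 2.6e-05 and 3e-05).

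**Figure D3:**
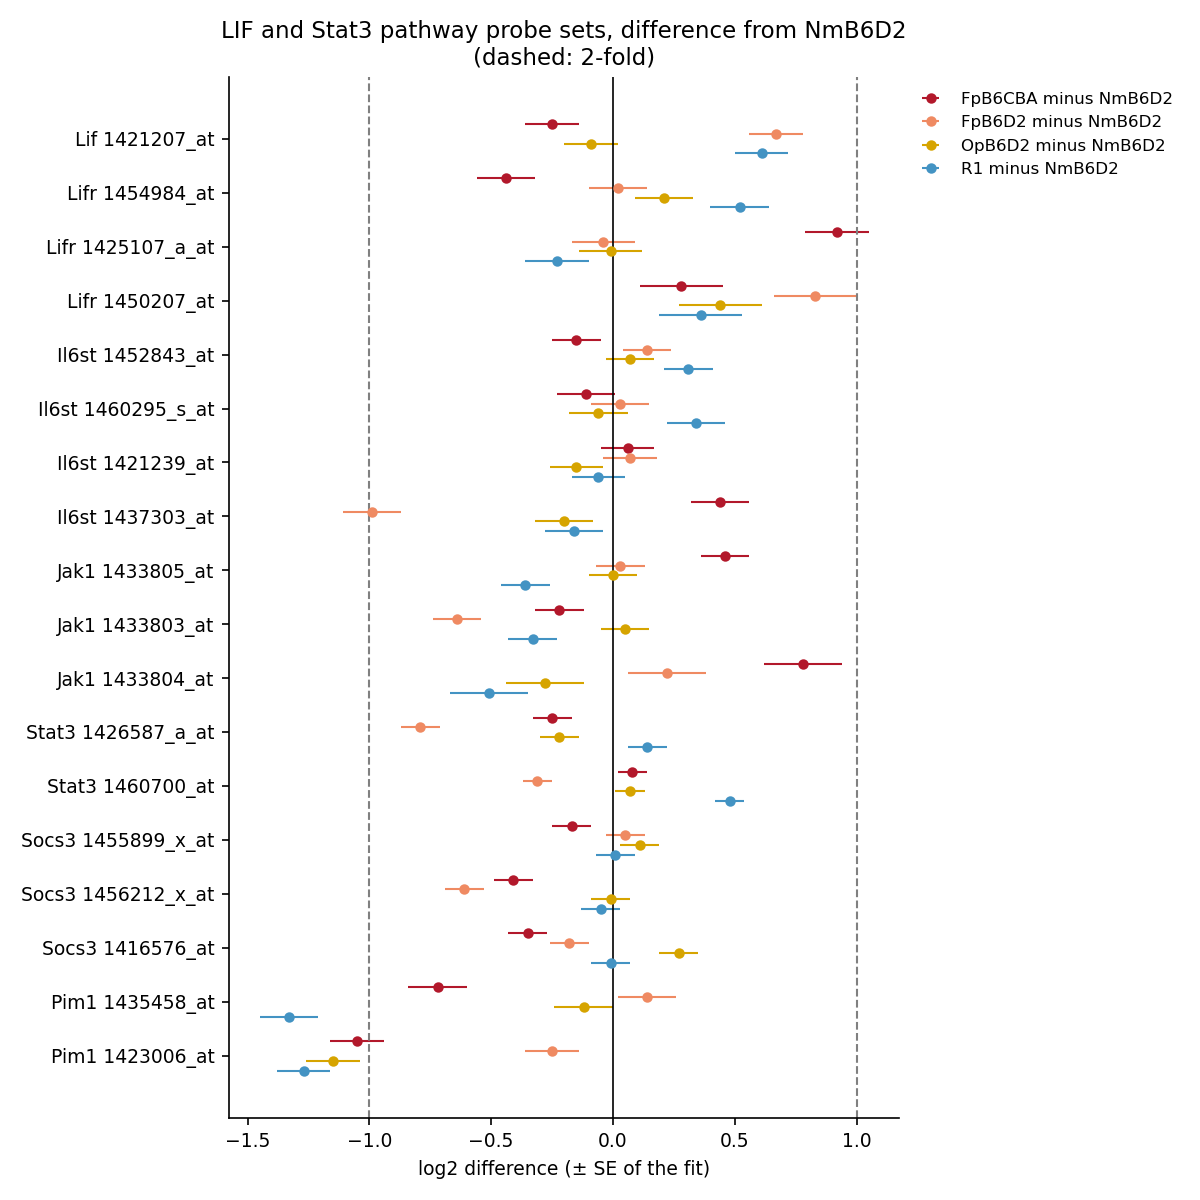
Log2 difference of FpB6CBA, FpB6D2, OpB6D2 and R1 from NmB6D2 (horizontal axis, ± SE of the fit over 15 arrays) for the 18 tested probe sets; dashed lines mark 2-fold. The points past 2-fold are Pim1 1435458_at in R1, at -1.33, and Pim1 1423006_at in R1, OpB6D2 and FpB6CBA, at -1.27, -1.15 and -1.05.

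Markers of other cell types also differed between these lines. Of 24 fibroblast markers, 22 were tested, of which 12 were higher and 0 lower in R1 than in NmB6D2, 5 and 0 in OpB6D2, 3 and 0 in FpB6CBA, and 6 and 0 in FpB6D2. In the same comparisons 12.9%, 5.84%, 4.20% and 10.7% of all genes were called. The collagen genes Col5a1, Col3a1 and Col1a1 were 6.6-fold, 6.28-fold and 4.12-fold higher in R1. The mean level of that list per array was 6.53 to 6.83 in FpB6CBA, 6.59 to 6.68 in FpB6D2, 6.69 to 7.05 in OpB6D2, 7.12 to 7.20 in R1 and 6.10 to 6.22 in NmB6D2. The 2 fibroblast markers not tested, Lum and Fap, lay below the filter value in all 5 lines. Of 14 primitive endoderm markers, 13 were tested, of which 9 were higher and 0 lower in FpB6CBA than in NmB6D2. Relative to FpB6D2, 10 were higher and 1 lower in FpB6CBA, where 11.2% of all genes were called. In R1, 5 were higher and 3 lower than in NmB6D2, among them Gata4 and Sox17 at 7.42-fold and 3.83-fold higher and Amn at 3.14-fold lower. In OpB6D2, 1 was higher and 0 lower than in NmB6D2, and in FpB6D2, 1 was higher and 1 lower. The mean level of all 14 per array was 6.62 to 6.81 in FpB6CBA, 5.28 to 5.39 in FpB6D2, 5.33 to 5.49 in OpB6D2, 5.58 to 5.75 in R1 and 5.33 to 5.55 in NmB6D2. Of 10 trophectoderm markers, 0 were higher and 5 lower in OpB6D2 than in NmB6D2, 1 and 5 in FpB6D2, 0 and 1 in FpB6CBA, and 1 and 2 in R1. In R1, Eomes was 6.01-fold higher than in NmB6D2, Krt7 was 13.7-fold lower and Elf5 was at least 8.51-fold lower, and Elf5 was the called gene in FpB6CBA. Their mean level per array was 7.16 to 7.22 in FpB6CBA, 6.49 to 6.60 in FpB6D2, 5.66 to 5.85 in OpB6D2, 7.04 to 7.18 in R1 and 7.65 to 7.70 in NmB6D2. The part of these markers in the results for the LIF pathway genes was not tested, and in RNA from a whole culture fewer cells of a type and less RNA per cell cannot be told apart.

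The 3 parthenogenetic lines were set against the 2 fertilised lines on line means, since the line is the replicate of origin. None of the 18 probe sets was called with limma, and 0% of all 24524 were. None of the 18 was at an unadjusted p under 0.05, against 4.44% of all probe sets. Differences of the parthenogenetic minus the fertilised lines ran from -0.49 ± 0.24 for Stat3 1426587_a_at to 0.50 ± 0.37 for Jak1 1433804_at, with limma adjusted p of 0.94 for both. Pim1 gave 0.43 ± 0.48 and -0.18 ± 0.48. On 1435458_at the parthenogenetic lines averaged 8.05 in FpB6CBA, 8.92 in FpB6D2 and 8.66 in OpB6D2, and the fertilised lines averaged 7.44 in R1 and 8.77 in NmB6D2, so the ranges of both origins overlapped. With 5 lines, a difference tied to origin would have to exceed the spread between lines of the same origin.

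The rest of the pathway was read through 4 gene lists, with the brightest probe set standing for each gene. Of 9 tested ligand and receptor genes of the interleukin-6 family, 2 rose and 1 fell in R1 against NmB6D2, where 12.9% of all genes tested were called. Il11, a cytokine that signals through Il6st, averaged 7.44 in R1 and 4.27 in NmB6D2, 8.98-fold higher (3.17 ± 0.16, limma adjusted p = 7.9e-10). The other called gene that was higher was Il6, at 4.58 in R1 and 3.01 in NmB6D2 (limma adjusted p = 1.4e-05), with the NmB6D2 mean below the filter value, so that the fold was at least 1.64 and a 2-fold rise was not measured. Cntfr, a receptor chain for ciliary neurotrophic factor, fell 2.17-fold in R1 (-1.11 ± 0.15, limma adjusted p = 2e-05). Il6 was also the 1 gene of the 9 past the thresholds in FpB6D2 against NmB6D2 and in FpB6CBA against FpB6D2. It averaged 4.04 in FpB6D2, just above the filter value, and lay below it at 2.95 in FpB6CBA and 3.01 in NmB6D2, so these 2 calls describe no measured 2-fold difference. Cntfr was the called gene in FpB6D2 against OpB6D2, 2.52-fold lower, where 3.75% of genes were called. No gene of the list was called in OpB6D2 or FpB6CBA against NmB6D2, where 5.84% and 4.20% of genes were called.

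Among 8 other Jak and Stat genes, FpB6D2 differed from NmB6D2 in 4, with 1 higher and 3 lower, where 10.7% of all genes were called, and the list median was -0.31 against 0.02 for all genes. Stat4, a transcription factor of interleukin-12 signalling, was 3.19-fold higher in FpB6D2 than in NmB6D2 (1.67 ± 0.10, limma adjusted p = 6.4e-09). It was also 2.14-fold higher in OpB6D2 and 2.57-fold higher in FpB6CBA, each the called gene of its comparison with NmB6D2, where 5.84% and 4.20% of genes were called. Stat5b fell 2.50-fold in FpB6D2 (-1.32 ± 0.11), Stat6 fell 2.22-fold (-1.15 ± 0.06) and Stat2 fell 2.06-fold (-1.05 ± 0.15). Stat5b and Stat2 averaged 4.14 and 3.98 in FpB6D2, just above the filter value, so their folds against FpB6D2 are uncertain. Stat6, the interleukin-4 responsive member, and Stat2, the interferon responsive member, were 2.85-fold and 2.35-fold higher in FpB6CBA than in FpB6D2 (1.51 ± 0.06 and 1.23 ± 0.15), where 11.2% of genes were called, and the list median was 0.57 against 0.00. Jak2, another receptor-bound kinase, averaged 6.86 in R1 and 5.06 in NmB6D2 (3.48-fold, 1.80 ± 0.09, limma adjusted p = 8.7e-10), the 1 called gene of the list where 12.9% of genes were. No gene of this list was called in FpB6D2 against OpB6D2.

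Of 19 negative regulators and adaptors, 1 rose and 3 fell in FpB6D2 against NmB6D2, where 10.7% of all genes were called. In the other 5 comparisons 0 to 3 of the 19 were called, where 3.75% to 12.9% of all genes were. Pias2, a SUMO ligase that restrains Stat proteins, averaged 10.85 in FpB6D2 and 9.20 in NmB6D2 (3.13-fold, 1.65 ± 0.06, limma adjusted p = 2.5e-11). The exchange factor Sos1 fell 2.60-fold (-1.38 ± 0.10), the phosphatase gene Ptpn6 fell 2.26-fold (-1.18 ± 0.08) and Socs4 fell 2.24-fold (-1.17 ± 0.13). Ptpn6 also fell in OpB6D2 and R1 relative to NmB6D2, 2.17-fold and 2.19-fold, and rose 3.71-fold in FpB6CBA relative to FpB6D2 (1.89 ± 0.08, limma adjusted p = 3.3e-10). In that last comparison Socs2 fell 2.90-fold (-1.54 ± 0.06) and Pias2 fell 2.8-fold (-1.48 ± 0.06). Socs5 rose 3.28-fold in R1 (8.64 in R1 and 6.93 in NmB6D2, 1.71 ± 0.07, limma adjusted p = 9.1e-11). Socs4 was the called gene in FpB6D2 against OpB6D2, 2.02-fold lower, and no gene of this list was called in FpB6CBA against NmB6D2.

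Known Stat3 target genes, 20 in the list, gave the most calls in FpB6CBA against FpB6D2, with 2 higher and 5 lower, where 11.2% of all genes were called, and a median of -0.39 against 0.00 for all genes. The mean level of the list per array was 7.82 to 7.88 in FpB6CBA and 8.42 to 8.44 in FpB6D2. Pramel7, a blastocyst and ES cell gene, averaged 2.82 in FpB6CBA and 7.74 in FpB6D2, at least 14.7-fold lower. Gbx2, a homeobox gene that sustains self-renewal, averaged 5.57 in FpB6CBA and 8.5 in FpB6D2 (7.63-fold lower, -2.93 ± 0.09, limma adjusted p = 7.8e-12). Myc, a growth regulator, averaged 5.10 in FpB6CBA and 7.53 in FpB6D2 (5.40-fold lower, -2.43 ± 0.06, limma adjusted p = 1.3e-12). Klf4, a pluripotency factor, averaged 8.95 in FpB6CBA and 10.91 in FpB6D2 (3.87-fold lower, -1.95 ± 0.07, limma adjusted p = 2.2e-11). The immediate-early gene Fos went the other way, 8.21-fold higher in FpB6CBA (9.55 in FpB6CBA and 6.51 in FpB6D2, limma adjusted p = 5.7e-12), and Ier3 was 2.18-fold higher. The ES cell marker Nanog averaged 9.81 in FpB6CBA and 11.39 in FpB6D2 (3.01-fold lower, limma adjusted p = 1.5e-10). In FpB6CBA against NmB6D2, Gbx2 fell 5.55-fold, Myc fell 4.93-fold and Fos rose 3.83-fold, where 4.20% of genes were called.

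Against NmB6D2, 2 of the 20 target genes rose and 2 fell in OpB6D2, 3 rose and 3 fell in FpB6D2, and 2 rose and 3 fell in R1, with medians of 0.06, 0.14 and 0.05. In these comparisons 5.84%, 10.7% and 12.9% of all genes were called. Klf4 rose in each of these, 2.59-fold in OpB6D2 (1.37 ± 0.07), 2.84-fold in FpB6D2 (1.5 ± 0.07) and 2.29-fold in R1 (1.20 ± 0.07). Zfp36, which promotes mRNA decay, fell 2.72-fold, 2.22-fold and 3.13-fold in the same lines, and Ier3 fell 2.13-fold, 2.91-fold and 4.31-fold. Pramel7 rose at least 3.02-fold in OpB6D2 and at least 14.7-fold in FpB6D2. It was also the called gene in FpB6D2 against OpB6D2, 4.86-fold higher (2.28 ± 0.11). Bcl3 rose 2.20-fold and Fos fell 2.14-fold in FpB6D2, while in R1 Sgk1 rose 2.49-fold and Cebpd fell 2.15-fold. Klf4 was thus higher in OpB6D2 and R1 than in NmB6D2 while Pim1, on at least 1 probe set, was lower. These comparisons share the NmB6D2 arrays.

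**Figure D4:**
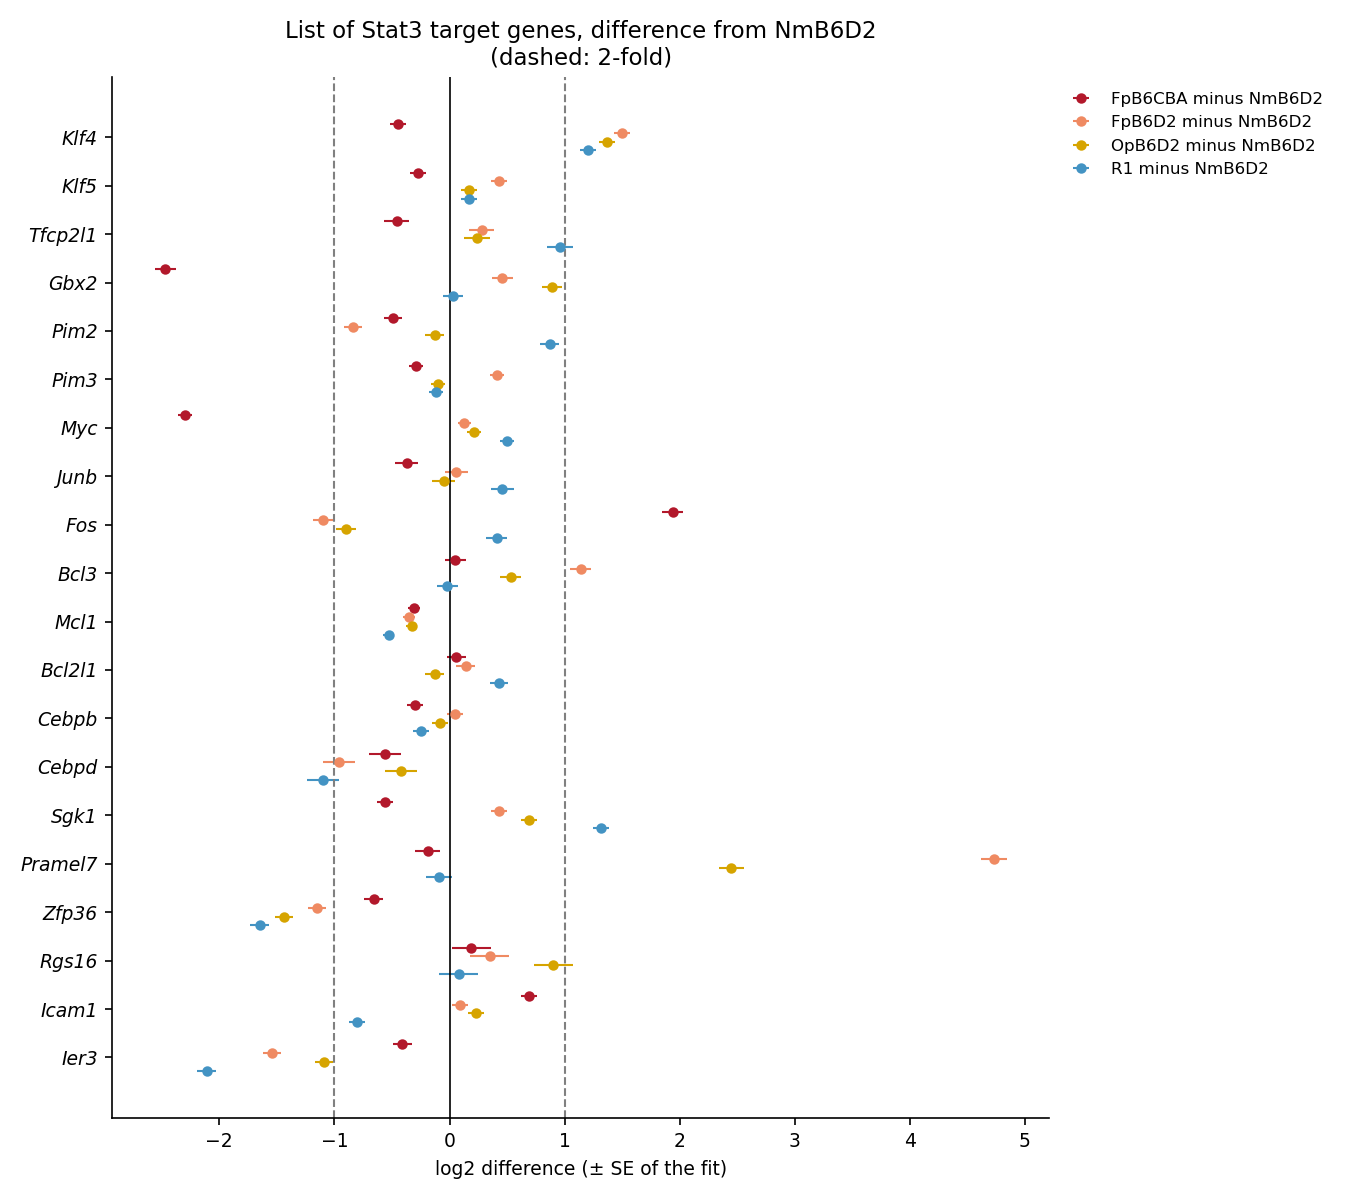
Log2 difference of FpB6CBA, FpB6D2, OpB6D2 and R1 from NmB6D2 (horizontal axis, ± SE of the fit over 15 arrays) for 20 known Stat3 target genes; dashed lines mark 2-fold. Gbx2 and Myc are low in FpB6CBA, at -2.47 and -2.30, Pramel7 is high in FpB6D2 at 4.73, and Klf4 is high in FpB6D2, OpB6D2 and R1.

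Genes most like Pim1, Lifr and Stat3, the members with the widest range on their brightest probe set, were sought among 4210 genes with at least a 2-fold range of line means. Likeness was Pearson's r over the 15 arrays, which share lines and hybridisation, so it is a description. For Pim1 the nearest were Uri1 at 0.95, Cdc25b at 0.94 and Miip at 0.94. Uri1 averaged 9.13 in FpB6CBA, 10.30 in FpB6D2, 9.57 in OpB6D2, 8.37 in R1 and 9.83 in NmB6D2, the order of lines that Pim1 had on its brightest probe set. For Lifr they were Mier1, Dock11 and Zfp638, each at 0.97. Zfp638 averaged 6.42 in FpB6CBA, 7.60 in FpB6D2, 8.08 in OpB6D2, 8.63 in R1 and 7.46 in NmB6D2. For Stat3 they were Klhl2 at 0.97, Scd2 at 0.96 and Ivns1abp at 0.96. Ivns1abp averaged 9.18 in FpB6CBA, 7.82 in FpB6D2, 9.53 in OpB6D2, 10.34 in R1 and 9.78 in NmB6D2, lowest in FpB6D2 as Stat3 was.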

How the data were processed

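RNA of 15 arrays from 5 mouse ES cell lines was used as deposited. The deposited table holds log2 intensities of single arrays, made by the authors with RMA and the affy package per the submitters' processing notes, which give no versions. The log base is not given in the sources used here; the range of values, 1.99 to 13.96, and array medians of 3.84 to 3.90 fit log2. RMA shares probe effects across arrays and evens out their distributions, so shifts of a whole array are not measurable. Scanner files and detection calls were not used here.

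Of 45101 probe sets, 64 were controls, 34945 carried 1 gene symbol, 932 several and 9160 none. Probe sets with several symbols stood for no gene. limma 3.58.1 in R 4.3.3 fitted a mean per line over all 15 arrays. Of 45037 probe sets, 24524 reached 3.864 on at least 3 arrays. Benjamini-Hochberg adjustment ran over all of these. The contrast by origin was fitted on 5 line means. Where a line mean lay below the filter value, a fold is a bound computed against that value. SD is over the 3 arrays of a line and SE is of the fit. The number of arrays limits the precision. The fit was tested on simulated data.

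The genes and lists were chosen with earlier results of these data known. All 7 genes are named with every probe set. From the lists, genes called in a comparison are named, at most 6 per list and comparison by size, with the probe set of highest mean, 12813 such genes being tested. Likeness names 3 genes for each of 3 genes. Some list genes are not reported here. Alternatives were other filters, averaging or picking probe sets, median centring, quantile normalisation, an intensity trend, array weights, a 1.5-fold minimum, fits of 2 lines, a replicate block and leaving out arrays or lines. Having no fold minimum was added after seeing the data.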

Additional observations from a re-analysis of the deposited data

How the results depend on the processing

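Counts of called genes among the 7 depended on the fold minimum and on how probe sets were combined. Picking the brightest probe set of a gene, or averaging its probe sets, gave 0 called genes in place of 1 in OpB6D2 and in FpB6CBA against NmB6D2 and in FpB6CBA against FpB6D2, and 1 (Pim1) in place of 4 over the 5 lines. Of all genes, 5.84%, 4.20% and 11.2% were called on their brightest probe set in those pairs of lines. The share over the 5 lines under these settings is not reported here. Asking for at least 6 on at least 3 arrays gave 0 in FpB6CBA against FpB6D2 and 1 over the 5 lines. A 1.5-fold minimum gave 6 genes in FpB6D2 against NmB6D2, 3 in FpB6CBA and 2 in R1 against NmB6D2, 5 in FpB6D2 against OpB6D2, 4 in FpB6CBA against FpB6D2 and 7 over the 5 lines; these rest on 6, 4, 3, 5, 5 and 14 of 18 probe sets, against 25.3%, 15.2%, 28.6%, 15.1%, 25.2% and 60.3% of all probe sets. No fold minimum gave 3 in OpB6D2, 6 in FpB6D2, 6 in FpB6CBA and 6 in R1 against NmB6D2, 6 in FpB6D2 against OpB6D2, 7 in FpB6CBA against FpB6D2 and 7 over the 5 lines; these rest on 3, 7, 10, 10, 9, 14 and 16 of 18 probe sets, against 44.0%, 55.5%, 45.6%, 58.9%, 47.8%, 54.8% and 83.8% of all probe sets. Median centring and array weights each gave 1 (Il6st, -1.0) in FpB6D2 against NmB6D2, and array weights gave 2 in FpB6CBA against FpB6D2.

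With 1 array left out, counts ran from 1 to 2 in FpB6CBA against FpB6D2, 0 to 1 in FpB6CBA and in FpB6D2 against NmB6D2, 0 to 1 in FpB6D2 against OpB6D2, 4 to 5 over the 5 lines, and stayed at 1 in OpB6D2 and in R1 against NmB6D2. By origin the count was 0 in all settings run. Of the alternatives for these counts, 190 stayed within 1.5 times the main count and 35 did not; the cause was not tested beyond the settings' own construction. No difference of a single probe set reversed while called. Pim1 in R1 against NmB6D2 stayed between -1.41 and -1.21 on 1435458_at and between -1.36 and -1.21 on 1423006_at, and in OpB6D2 between -1.21 and -1.08 on 1423006_at.

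Deviations of same-numbered arrays correlated from -0.19 to 0.12, so they shared little. This cannot show whether arrays with the same title number were prepared together. A replicate block over the 13 numbered arrays gave 1 called gene in FpB6D2 against NmB6D2 (Il6st, -1.03) and 2 in FpB6CBA against FpB6D2, with Pim1 at -1.01 (limma adjusted p = 0.00013); it moved no other count by over 1.5 times. The signals of Lif, Lifr 1425107_a_at, Il6st 1437303_at and Jak1 1433804_at were dim, and signal over background was not used here.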

Other observations

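Pim1 has close relatives in Pim2 and Pim3, which encode kinases of the same family and are also known Stat3 targets. They were singled out after their values were seen. Pim2 averaged 7.21 ± 0.10 in FpB6CBA, 6.86 ± 0.14 in FpB6D2, 7.56 ± 0.03 in OpB6D2, 8.57 ± 0.09 in R1 and 7.70 ± 0.08 in NmB6D2 (SD, n = 3). R1 was thus the highest line for Pim2, 1.83-fold above NmB6D2 (0.87 ± 0.08 SE, limma adjusted p = 4.3e-07), and the lowest for Pim1. FpB6D2 was the lowest line for Pim2, 1.79-fold below NmB6D2 (-0.84 ± 0.08, limma adjusted p = 7.7e-07), and the highest for Pim1 on its brightest probe set. Pim3 averaged 9.92 ± 0.11 in FpB6CBA, 10.62 ± 0.02 in FpB6D2, 10.11 ± 0.01 in OpB6D2, 10.09 ± 0.07 in R1 and 10.21 ± 0.01 in NmB6D2 (SD, n = 3), with FpB6D2 highest, 1.33-fold above NmB6D2 (0.41 ± 0.06, limma adjusted p = 4.3e-05). None of these differences from NmB6D2 reached 2-fold. For Pim2, the line means of R1 and FpB6D2, at 8.57 and 6.86, lay more than 2-fold apart, but this pair of lines was not tested. Whether the 3 kinases differed from each other in pattern was not tested.

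Tfcp2l1, a transcription factor that acts below Stat3 in ES cell self-renewal, was also singled out after its values were seen. It averaged 8.47 in FpB6CBA, 9.22 in FpB6D2, 9.18 in OpB6D2, 9.90 in R1 and 8.93 in NmB6D2. R1 was 1.95-fold above NmB6D2 (0.96 ± 0.11, limma adjusted p = 3.2e-06) and FpB6CBA was 1.68-fold below FpB6D2 (-0.75 ± 0.11, limma adjusted p = 4.5e-05).

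Arrays of FpB6CBA spread more than those of other lines for the 18 probe sets, with a median SD of 0.18 and a highest SD of 0.42, against median SDs of 0.08 to 0.11 in the other 4 lines. Over all probe sets tested the median SD was 0.13 in FpB6CBA and 0.08 to 0.10 in the other 4 lines. The fit pools the spread over lines, so the SE of FpB6CBA differences may be too small.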
